A study of Mus musculus with 15 samples.

Results

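The constitutive proteasome subunits were the 31 genes that encode the barrel and the regulatory cap of the proteasome of unstimulated cells. They were taken by gene symbol with no measured value used, though the list was chosen with earlier results of these data known. They made up 31 of the 35880 genes with a symbol in the expression table. Of these, 7 belong to the alpha ring of the core (Psma1 to Psma7), 7 to its beta ring (Psmb1 to Psmb7), 6 to the ATPases of the cap (Psmc1 to Psmc6), 3 to the cap base without ATPase activity (Psmd1, Psmd2 and Psmd4) and 8 to the lid (Psmd3, Psmd6, Psmd7, Psmd8, Psmd11, Psmd12, Psmd13 and Psmd14). All 31 were among the 14652 genes that passed the filter on low values, a sum of at least 3 CPM over all samples, where CPM is the read count of a gene scaled to a fixed total per sample.

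The proteasome is the main protease of the cytosol and nucleus for proteins tagged with ubiquitin. The core is a barrel of stacked rings: the outer alpha rings gate the entrance, and the inner beta rings hold the proteolytic sites, on the products of Psmb5, Psmb6 and Psmb7. The cap binds ubiquitinated proteins, removes the ubiquitin and threads the chain into the barrel, so the genes of both parts encode 1 machine and their transcripts are often regulated together. KEAP1 is the adaptor that delivers the transcription factor NRF2 (gene Nfe2l2) to a ubiquitin ligase, and NRF2 itself is destroyed by the proteasome. NRF2 and the related factor NRF1 (gene Nfe2l1) both bind antioxidant response elements, short DNA motifs found near detoxification genes and near some proteasome genes.

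RNA was sequenced from LL2/Luc2 cells, a mouse Lewis lung carcinoma line, in 5 lines of 3 samples each: the unedited parental line (LL2 WT), 3 lines with Keap1 knocked out by CRISPR (KEAP1 KO #1, #2 and #3) and 1 line with Nfe2l2 knocked out (NRF2 KO). Each knockout line grew from 1 cell, whereas LL2 WT was not cloned, so the effect of an edit and that of being a clone cannot be told apart for NRF2 KO, and 3 clones stand for the loss of KEAP1. All lines were grown in the same medium with no treatment, and the 3 samples of a line were labelled biologic triplicates. The sequencing asked how the transcriptome changed with NRF2 activation. The wider aim of the paper was how lung cancer cells with constant NRF2 activity interact with their immune surroundings.

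The deposited values were normalized to nearly the same total in each sample (999412 to 999525 CPM), so the read depth of each sample was unknown. Keap1 stood at 22.0 to 24.0 CPM in LL2 WT, 10.8 to 12.5 in KEAP1 KO #1, 4.28 to 7.29 in #2, 3.78 to 6.83 in #3 and 21.6 to 24.8 in NRF2 KO. Nfe2l2 stood at 170 to 208 CPM in LL2 WT and 102 to 146 in NRF2 KO, and transcripts can persist after a frameshift. The NRF2 target Nqo1 stood at 26.1 to 36.5 CPM in LL2 WT, 253 to 545 in the KEAP1 KO clones and 8.55 to 11.0 in NRF2 KO. Gclc and Gclm, which encode the enzyme of glutathione synthesis, had means of 39.9 and 58.7 CPM in LL2 WT, 428 and 494 over the KEAP1 KO clones and 26.6 and 48.7 in NRF2 KO. Of the epithelial markers, Krt8 (65.1 to 186 CPM) and Krt18 (234 to 575 CPM) were present while Epcam and Cdh1 stayed at or under 0.0618 CPM, and none of the 4 leukocyte markers passed 0.214 CPM in any sample. Of the endothelial markers, Pecam1 lay at 2.42 to 7.17 CPM and Cdh5 had means of 0.0227 in LL2 WT, 0.104, 0.819 and 1.25 in KEAP1 KO #1, #2 and #3 and 0.197 in NRF2 KO. Of the fibroblast markers, Col1a1 and Dcn stayed at or under 0.829 CPM, and Pdgfrb had means of 0.697 in LL2 WT, 4.21, 0.0139 and 0.0347 in the clones and 0.719 in NRF2 KO. The part of these differences in the results was not tested. In bulk RNA, fewer cells expressing a gene and less RNA per cell cannot be told apart.

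Replicate 3 stood apart for these genes in every line, and this bears on all results that follow. All 31 members were lower in replicate 3 than in replicates 1 and 2 of LL2 WT, against 39.5% of all genes tested, with a median difference of -0.69 on the log2 scale. The same was true of all 31 in NRF2 KO (31.3% of all genes, median -0.54). In KEAP1 KO #1 it held for 29 members (23.5% of all genes, median -0.22), in #2 for 29 (29.8%, median -0.21) and in #3 for 30 (26.5%, median -0.29). The lid subunit Psmd8 was the exception in all 3 KEAP1 KO clones, joined by Psmc6 in #1 and Psma3 in #2. The members were therefore low together in replicate 3, and the size of the drop differed between lines, at over 0.5 in LL2 WT and NRF2 KO and under 0.3 in the clones. The labels name no batch, and the part of replicate 3 in each difference was not tested beyond the values given without it.

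**Figure D1:**
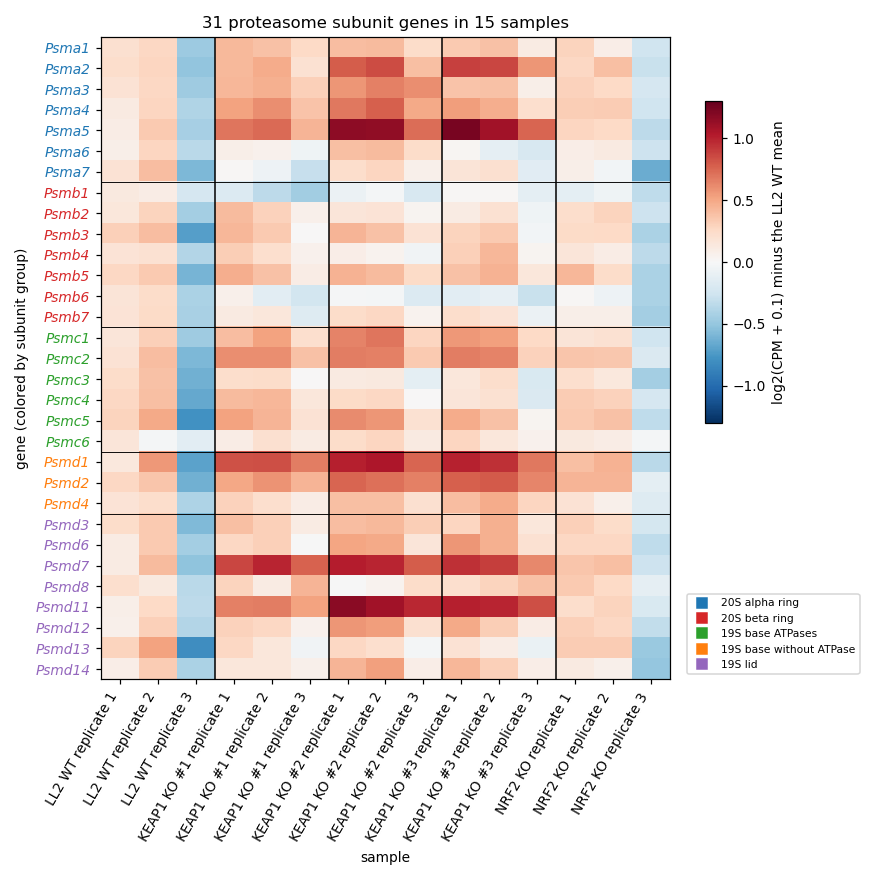
Level of each of the 31 proteasome subunit genes (rows, colored by subunit group) in each of the 15 samples (columns), as log2(CPM + 0.1) minus the mean of LL2 WT. Replicate 3 of LL2 WT and of NRF2 KO are the bluest columns, and Psma5, Psmd1, Psmd7 and Psmd11 are the reddest rows in the KEAP1 KO clones. In the mean of the clones, the beta ring rows lie between -0.16 (Psmb1) and 0.34 (Psmb5).

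The summed CPM of the 31 genes gave the simplest view of the set. In LL2 WT the sum was 6513 ± 1754 CPM (SD, n = 3). It was 7617 ± 601 in KEAP1 KO #1, 8381 ± 677 in #2 and 7865 ± 822 in #3, which is 1.17, 1.29 and 1.21 times the LL2 WT mean. The sum in NRF2 KO was 6554 ± 1295, or 1.01 times LL2 WT. Over replicates 1 and 2 alone, the same ratios were 1.06, 1.17, 1.11 and 0.973. The order of the lines was thus the same either way for the clones, but the distance from LL2 WT shrank once its replicate 3 was left out, and the ranges of the samples overlapped between LL2 WT and every clone.

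**Figure D2:**
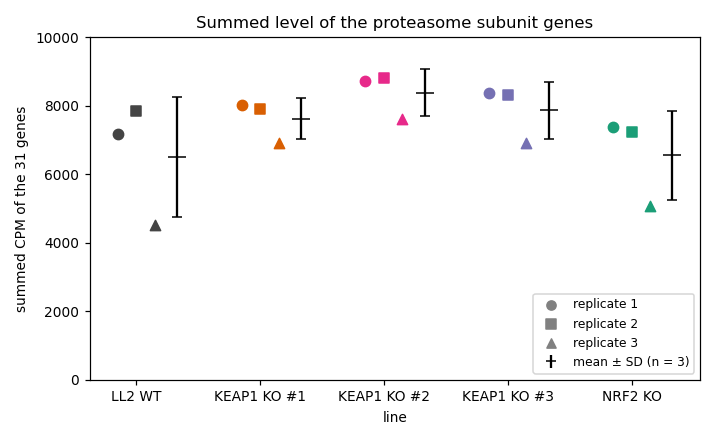
Summed CPM of the 31 genes in each sample (marker shape, replicate) of the 5 lines, with the mean ± SD of 3 samples at the right of each line. Replicate 3 is the lowest sample of every line and falls furthest in LL2 WT and NRF2 KO, while the mean rises from 6513 in LL2 WT to 8381 in KEAP1 KO #2.

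Against LL2 WT, 10 of the 31 members were higher in the mean of the 3 KEAP1 KO clones and none was lower (limma on log2(CPM + 0.1), adjusted p under 0.05), where 21.6% of all genes tested were higher and 15.8% lower. The median log2 fold change of the members was 0.31, beside 0.05 over all genes, and 29 of 31 values were above 0. The increases were modest: no member passed a fold change of 1 on the log2 scale together with the adjusted p, a rule that 5.81% of all genes met upward. The 10 members were Psma2, Psma3, Psma4 and Psma5 of the alpha ring, the ATPases Psmc1 and Psmc2, Psmd1 and Psmd2 of the base, and Psmd7 and Psmd11 of the lid. No unadjusted p under 0.05 marked a lower member. With the replicate block, 19 members were higher and 1 lower, where 29.1% and 22.9% of all genes were. Without replicate 3 of every line, 13 members were higher and 3 were lower (21.6% of all genes in each direction), the same 10 being among the 13, and the median was 0.13 beside -0.0046 over all genes. Below 0 were then Psma6, Psma7, Psmb1, Psmb6, Psmb7, Psmc3, Psmc4, Psmd8 and Psmd13, and all other members lay above it. Without only replicate 3 of LL2 WT, 3 were higher (Psma5, Psmd7 and Psmd11, against 16.1% of all genes), 2 were lower (Psmb1 and Psmb6) and the median was 0.050.

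The 10 higher members fell in 4 of the 5 groups of subunits, beside 21.6% of all genes. In the alpha ring 4 of 7 members were higher, with a median of 0.43. In the base without ATPase activity 2 of 3 were higher (median 0.65), among the ATPases 2 of 6 (0.29) and in the lid 2 of 8 (0.32), the last a share near that of all genes. In the beta ring none of 7 was higher or lower by limma, with no unadjusted p under 0.05 either, and the median was 0.16. With every sample kept, the replicate block called Psmb5 higher and Psmb1 lower, and so did replicate 3 fitted as a batch. Of all genes, 29.1% were higher and 22.9% lower in either fit. Sample weights and quantile normalization each called Psmb1 and Psmb6 lower, where 40.4% and 19.2% of all genes were. Leaving out replicate 3 of every line put the beta ring at 0 higher and 2 lower with a median of 0.0038, and the other groups at 4 of 7, 3 of 3, 2 of 6 and 4 of 8 higher, the lid with 1 lower. Of all genes, 21.6% were then higher and 21.6% lower. The difference between groups of subunits was itself not tested.

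**Figure D3:**
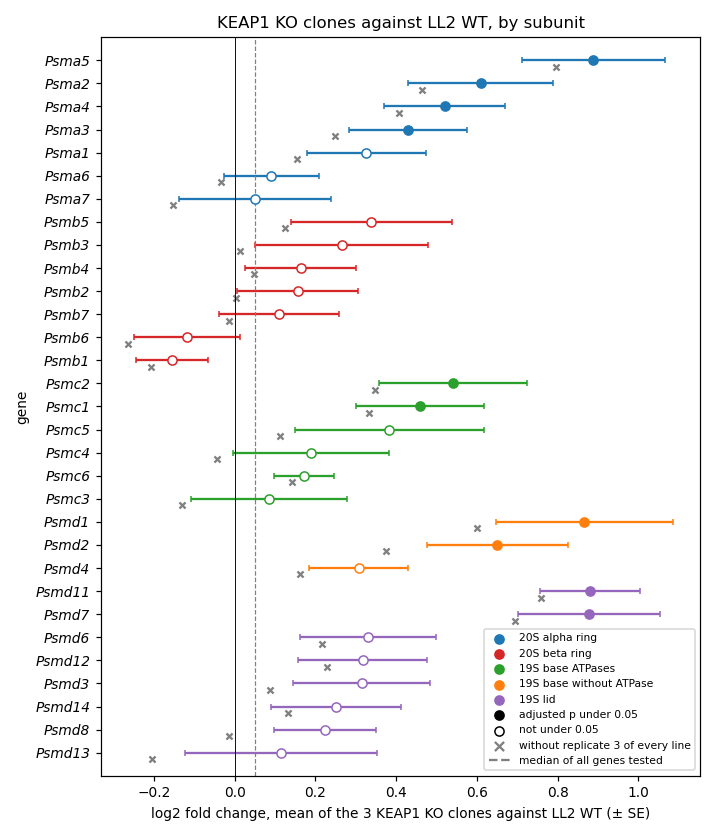
Log2 fold change of the mean of the 3 KEAP1 KO clones against LL2 WT for each member (circle, ± SE, filled where the adjusted p was under 0.05), grouped and colored by subunit group, with the value without replicate 3 of every line as a cross and the median of all genes tested as a dashed line. The 10 filled circles lie between 0.43 and 0.89, none of them in the beta ring, and the crosses lie to the left of the circles.

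Psmd11, Psma5 and Psmd7 were the members that stayed higher in all 26 alternative fits counted for this comparison. Psma2, Psmd1 and Psmd2 did so in 25 of 26. The fit of the compared lines alone was not among the 26, here or below. All 9 KEAP1 KO samples were above all 3 LL2 WT samples for 5 members (Psma5, Psmd1, Psmd2, Psmd7 and Psmd11), where 12.9% of all genes showed this, and no member lay below (7.69%). Against the 3 NRF2 KO samples, 5 members lay above (Psma5, Psmc1, Psmd1, Psmd7 and Psmd11, against 9.57% of all genes) and none below (6.94%). With replicates 1 and 2 alone, 12 members lay above in all 6 KEAP1 KO samples (20.5% of all genes) and 4 below (Psmb1, Psmb6, Psmc3 and Psmd13, against 17.6%).

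The promoters of 3 of these genes are printed because their transcripts were the most raised of the 25 members whose promoters were in the RefSeq table used (GRCm38.p6). Psmb1, Psmb2, Psmb7, Psmc3, Psmd3 and Psmd7 had no entry. Each window runs from 250 bases before to 50 bases after the transcript start, 5′ to 3′ on the gene's strand, and capitals mark matches to the 5 motifs searched on both strands: TGACNNNGC (the antioxidant response element core), CCGGAAG (the core bound by ETS factors), CCAAT, GCGCANGCG (bound by nuclear respiratory factor 1, a protein distinct from the Nfe2l1 product) and GGGCGG (the GC box). Psmd11 at chr11:80428365-80428664 (plus strand) holds a GC box and an ETS core, Psma5 at chr3:108256676-108256975 (plus strand) holds none of the 5, and Psmd1 at chr1:86064369-86064668 (plus strand) holds a pair of overlapping GC boxes.
Psmd11: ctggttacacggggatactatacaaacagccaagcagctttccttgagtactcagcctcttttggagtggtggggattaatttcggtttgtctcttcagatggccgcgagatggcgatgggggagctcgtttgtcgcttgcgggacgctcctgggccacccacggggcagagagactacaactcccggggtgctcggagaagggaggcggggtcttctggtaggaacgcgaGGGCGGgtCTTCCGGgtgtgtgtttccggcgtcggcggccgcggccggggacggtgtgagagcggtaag
Psma5: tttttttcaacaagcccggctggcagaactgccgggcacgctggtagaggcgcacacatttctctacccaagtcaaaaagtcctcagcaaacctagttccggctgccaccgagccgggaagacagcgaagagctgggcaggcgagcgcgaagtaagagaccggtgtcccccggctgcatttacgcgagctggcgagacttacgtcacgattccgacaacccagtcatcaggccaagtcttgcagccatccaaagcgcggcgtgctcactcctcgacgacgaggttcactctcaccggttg
Psmd1: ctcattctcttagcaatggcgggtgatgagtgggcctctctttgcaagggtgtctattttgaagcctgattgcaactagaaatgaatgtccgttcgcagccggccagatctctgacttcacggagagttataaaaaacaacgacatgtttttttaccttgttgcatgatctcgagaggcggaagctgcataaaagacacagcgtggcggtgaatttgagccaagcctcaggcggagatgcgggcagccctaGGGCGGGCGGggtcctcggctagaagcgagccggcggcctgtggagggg

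The antioxidant response element core is shown where it was found, since it is the motif that NRF2 binds. It occurred in 4 of the 25 members, against 14.0% of all genes with a promoter, namely, with the leftmost base of the match counted from the start, Psmb6 (-9), Psmb5 (-47), Psmc6 (-227) and Psmd12 (-247), and in 0 of the 9 members with a promoter that were higher in the KEAP1 KO clones. The capitals mark the core, on either strand, with up to 10 bases on each side. The coordinates are chr11:70525338-70525366 for Psmb6, chr14:54618024-54618052 on the minus strand for Psmb5, chr14:45329587-45329615 for Psmc6 and chr11:107479278-107479299 for Psmd12.
Psmb6: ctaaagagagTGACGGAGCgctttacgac
Psmb5: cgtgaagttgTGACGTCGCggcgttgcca
Psmc6: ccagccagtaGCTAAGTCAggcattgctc
Psmd12: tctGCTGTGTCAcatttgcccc
The ETS core was in 10 of 25 members (9.93% of all genes), 4 of them among the 9 higher members. The nuclear respiratory factor 1 motif was in 6 (7.03% of all genes), the GC box in 15 (38.2%) and CCAAT in 10 (41.1%). These are matches of letters in a fixed window, and enhancers or starts outside it were not searched.

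The 31 genes lie on 14 chromosomes. Per kilobase of transcript, levels in LL2 WT ranged from 30.5 ± 8.41 CPM per kb for Psma2 to 549 ± 177 for Psma7 (SD, n = 3), an 18-fold range around a median of 133, although the lengths come from annotated transcripts and an unused long form lowers the value. Of the 31, 15 share over 5% of their 31-base words with transcripts of other genes and 7 share over 20%, which limits how surely reads could be assigned. The highest shares were 71.7% for Psmb5 and 61.0% for Psma5. The genes that share the most with Psma5 (Gm8394 and Gm12989) were listed at no more than 0.412 CPM, and those of Psmb5 at no more than 0.162 CPM. For Psma3, with 20.3% shared, the corresponding genes reached 138 CPM. Psmd7 shared none.

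In the alpha ring, Psma5 rose the most and Psma7, the lowest value of the ring, did not pass the test. Psma5 (chr3:108256926-108279974, GRCm38, GENCODE M21) encodes the subunit known as alpha 5. Its CPM in replicates 1 to 3 were 185, 220 and 129 in LL2 WT, 281, 290.4 and 236 in KEAP1 KO #1, 388, 387 and 287 in #2, 409, 371 and 293 in #3, and 211, 208 and 137 in NRF2 KO. Every KEAP1 KO sample was above every sample of the other lines. The log2 fold change was 0.89 ± 0.18 (SE, adjusted p by limma = 0.0018) for the mean of the clones, and 0.63, 1.01 and 1.03 for #1, #2 and #3, of which #1 missed the threshold (adjusted p by limma = 0.054). Psma7 (chr2:180036374-180042433), which encodes alpha 4, stood at 548, 636 and 322 CPM in LL2 WT and between 393 and 584 in the clones. Its samples overlapped throughout, at a log2 fold change of 0.05 ± 0.19 over all samples and -0.15 without replicate 3 of every line. Psma2, Psma4 and Psma3 were higher by 0.61, 0.52 and 0.43 in the mean of the clones, in 25, 24 and 17 of 26 fits, and Psma1 (0.33) and Psma6 (0.09) missed the threshold. Psma2 stood at 101, 105 and 60.5 CPM in LL2 WT and 149 to 160 in replicates 1 and 2 of #2 and #3, but 116 and 120 in those of #1.

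In the beta ring, which carries the proteolytic sites, no member passed the test over all samples. Psmb5 (chr14:54614119-54618022), whose product holds the chymotrypsin-like site, had 206, 216 and 113 CPM in LL2 WT and 230, 202 and 128 in NRF2 KO. In the clones it had 237, 224 and 183 in #1, 234, 228 and 204 in #2 and 223, 234 and 189 in #3. The LL2 WT mean was pulled down by replicate 3, and the log2 fold change of 0.34 ± 0.20 (adjusted p by limma = 0.20) became 0.12 without replicate 3 of every line. Psmb6 (chr11:70525367-70527858), which encodes the caspase-like site, had 326, 341 and 218 CPM in LL2 WT and 237 to 303 in the clones. Its log2 fold change was -0.12 ± 0.13 over all samples and -0.26 (adjusted p by limma = 0.010) without replicate 3 of every line, when all clone samples were below LL2 WT. Psmb7 (chr2:38588036-38644087), which encodes the trypsin-like site, had 321, 337 and 213 CPM in LL2 WT and 254 to 344 in the clones, at 0.11 ± 0.15. Psmb1 (chr17:15475021-15499751), a structural subunit, had the lowest value of all members, -0.16 ± 0.090 over all samples and -0.21 (adjusted p by limma = 0.017) without replicate 3. NRF2 KO also lay below LL2 WT for Psmb6 and Psmb1, at -0.16 and -0.17 over all samples and -0.23 and -0.20 without replicate 3. Neither passed the test there. Against NRF2 KO, the mean of the clones was at 0.04 for Psmb6 and 0.01 for Psmb1. Psmb2, Psmb3 and Psmb4 lay between 0.16 and 0.26. Summed over the ring, the clones stood at 1.04, 1.07 and 1.05 times LL2 WT, and at 0.968, 0.973 and 0.971 over replicates 1 and 2.

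**Figure D4:**
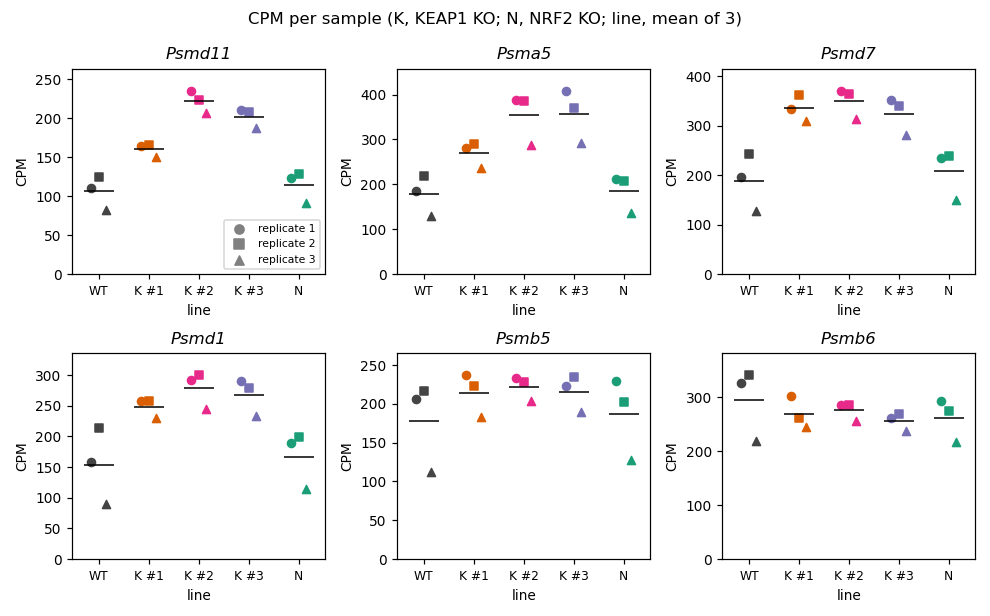
CPM of 6 members in each sample of LL2 WT (WT), the 3 KEAP1 KO clones (K #1 to K #3) and NRF2 KO (N), with marker shape for the replicate and a line at the mean of 3. For Psmd11, Psma5, Psmd7 and Psmd1 all 9 KEAP1 KO samples lie above all 6 others, whereas for the catalytic subunits Psmb5 and Psmb6 the lines overlap.

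Among the ATPases, which form the ring that unfolds substrates, Psmc2 and Psmc1 rose and the other 4 did not pass the test. Psmc2 (chr5:21785283-21803787) had 153, 178 and 89.3 CPM in LL2 WT, 172, 171 and 118 in NRF2 KO, and 166 to 213 in the clones. Its log2 fold change was 0.54 ± 0.18 (adjusted p by limma = 0.034). That call held in 16 of 26 fits, and that of Psmc1 (0.46) in 15, so both depended on the samples used and on the processing. Psmc3 (chr2:91054009-91066369) had 290, 321 and 159 CPM in LL2 WT and 213 to 290 in the clones, at 0.08 ± 0.19. Without replicate 3 of every line its value was -0.13. Psmc4, Psmc5 and Psmc6 had log2 fold changes of 0.19, 0.38 and 0.17 and missed the threshold.

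The base without ATPase activity held some of the larger increases. Psmd1 and Psmd2 encode the large scaffold proteins of the base, and shuttle factors that carry ubiquitinated proteins dock on that of Psmd2. Psmd1 (chr1:86064387-86139151) had 159, 214 and 89.3 CPM in LL2 WT, 257, 258 and 230.3 in KEAP1 KO #1, 293, 300 and 245 in #2, 291, 280 and 233 in #3, and 190, 199 and 114 in NRF2 KO. The lowest clone sample (230.3) was above the highest of the other lines (214). The log2 fold change was 0.87 ± 0.22 (adjusted p by limma = 0.0079), and 0.60 without replicate 3 of every line. Psmd2 was higher by 0.65 ± 0.17. Psmd4 (chr3:95032694-95042614), which encodes a ubiquitin receptor, had 196, 204 and 131 CPM in LL2 WT and 186 to 244 in the clones, at 0.31 ± 0.12 (adjusted p by limma = 0.064). Without replicate 3 it was 0.16 (adjusted p by limma = 0.037).

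In the lid, Psmd11 and Psmd7 stood out from the other 6. Psmd11 (chr11:80428615-80473248) encodes the subunit also called Rpn6. It had 111, 125 and 82.8 CPM in LL2 WT, 165, 166 and 150 in KEAP1 KO #1, 236, 223 and 207 in #2, 211, 208 and 188 in #3, and 123, 128 and 91.0 in NRF2 KO. Every clone sample was above every other sample, and #1 lay between the other clones and the unedited line. The log2 fold change was 0.88 ± 0.12 (adjusted p by limma = 0.00013) for the mean of the clones, 0.61 for #1, 1.08 for #2 and 0.95 for #3. Psmd7 (chr8:107580381-107588464), which encodes the partner of the lid deubiquitinase, is described here after its values were seen. It had 197, 243 and 127 CPM in LL2 WT and 282 to 371 in the clones, at 0.88 ± 0.18 (adjusted p by limma = 0.0019), with 0.88, 0.93 and 0.82 in the separate clones. Psmd14 (chr2:61711694-61800376), which encodes that deubiquitinase, had 205, 242 and 146 CPM in LL2 WT and 203 to 280.4 in the clones, at 0.25 ± 0.16. Psmd13 (chr7:140881968-140898643) had 142, 167 and 66.5 CPM in LL2 WT and 110 to 141 in the clones. Its log2 fold change was 0.11 ± 0.24 over all samples and -0.21 (adjusted p by limma = 0.046) without replicate 3, so its direction rested on that replicate. Psmd3, Psmd6, Psmd8 and Psmd12 lay between 0.22 and 0.33 and missed the threshold.

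Clone by clone, 2 members were higher in KEAP1 KO #1 (Psmd7 and Psmd11, beside 15.9% of all genes), 9 in #2 (17.3%) and 6 in #3 (16.6%), and none was lower by limma, where 7.25%, 14.6% and 14.8% of all genes were. At an unadjusted p under 0.05, 1 member was lower in #1 (Psmb1) and none in #2 or #3. The median log2 fold changes were 0.27, 0.36 and 0.30, beside 0.11, 0.03 and 0.02 over all genes, so in #1 part of the median is shared by the whole table. Past a log2 fold change of 1 as well were Psma5 and Psmd11 in #2 (5.94% of all genes) and Psma5 in #3 (6.09%). Without replicate 3 of every line the counts were 10, 15 and 11 higher (16.5%, 18.6% and 18.1% of all genes) and 3, 1 and 2 lower (10.4%, 20.9% and 22.1%). With the replicate block they were 11, 20 and 13 higher (26.4%, 25.4% and 24.3%) and 1, 0 and 0 lower (14.4%, 22.7% and 22.9%). These comparisons share the same 3 LL2 WT samples.

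Between the clones no member passed the adjusted threshold with all samples and no block. For KEAP1 KO #1 against the mean of #2 and #3, 0 members were higher and 0 lower by limma, where 15.8% of all genes differed in either direction, with 0 and 2 at an unadjusted p under 0.05. The 2 were Psmd11, at -0.40 ± 0.13 (adjusted p by limma = 0.053), and Psmb1, at -0.25 ± 0.096. Psma5 was at -0.39 ± 0.19. Without replicate 3 of every line, 7 members were lower in #1 (Psma2, Psma5, Psma7, Psmb1, Psmd2, Psmd11 and Psmd14, against 8.58% of all genes) and 2 higher (Psmb2 and Psmc4, against 16.6%). For #3 against #2, 0 were higher and 0 lower by limma (0.764% of all genes), and 1 was lower at an unadjusted p under 0.05 (Psma6, -0.44). With the replicate block Psma6 was lower at the adjusted threshold (1.32% of all genes were), and 4 members were lower in #1 against #2 and #3 (Psma2, Psma5, Psmb1 and Psmd11, against 9.98%).

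In NRF2 KO no member passed the test against LL2 WT. By limma 0 of 31 were higher and 0 lower, where 0.13% and 0.491% of all genes were, and 0 passed an unadjusted p under 0.05 in either direction. The median was 0.07 beside 0.04 over all genes, with a range from -0.20 (Psma7) to 0.25 (Psmd2, SE 0.21). No member separated the 3 NRF2 KO samples from the 3 LL2 WT samples, where 8.68% of all genes lay above and 4.53% below. Standard errors in this comparison ran from 0.091 to 0.29, so a p that missed the threshold leaves changes of the size seen for Psma1 or Psmd4 in the clones possible. With sample weights, 3 members were higher (Psma4, Psmd7 and Psmd12) and 2 lower (Psmb1 and Psmb6), at 20.5% and 23.8% of all genes. Against NRF2 KO, the mean of the KEAP1 KO clones was higher for 4 members (Psma5, Psmd1, Psmd7 and Psmd11, beside 13.6% of all genes) and lower for none by limma (1803 of the 14652 genes tested were lower), with 10 and 0 at an unadjusted p under 0.05. The values of the 4 were 0.82, 0.70, 0.72 and 0.77. Without replicate 3 of every line 13 were higher (16.6% of all genes), and with the replicate block 16 were (21%).

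Of the other genes of the pathway, 40 passed the filter and are given here, and 19 were higher and 4 lower in the mean of the clones against LL2 WT, beside 21.6% and 15.8% of all genes. Psmd5, which encodes a chaperone of base assembly, showed the largest rise. It had 61.9, 75.0 and 46.9 CPM in LL2 WT, 114 to 133 in KEAP1 KO #1, 135 to 159 in #2, 126 to 158 in #3 and 39.7 to 62.1 in NRF2 KO, at a log2 fold change of 1.18 ± 0.15 (adjusted p by limma = 6.9e-05). It was the only one of these 40 genes past both thresholds upward, and it remained higher in all 26 fits. Pomp, the maturation factor of the core, was higher by 0.54 ± 0.18 (adjusted p by limma = 0.035, a call that held in 17 of 26 fits), and the other 6 assembly chaperones tested missed the threshold. Of the 7 enzymes and adaptors that bind the proteasome, 5 were higher (Usp14, Uchl5, Ube3c, Ecpas and Zfand5). Of 12 ubiquitin genes, E1 enzymes and shuttle factors, 9 were higher (Uba1, Uba6, Rad23b, Ubqln1, Ubqln2, Ubqln4, Vcp, Ufd1 and Nploc4) and Rps27a, which also encodes a ribosomal protein, was lower, a call that held in 8 of 26 fits. Nfe2l1 had 45.8, 46.6 and 83.1 CPM in LL2 WT and 41.8 to 55.4 in the clones, at -0.21 ± 0.18. Without replicate 3 of every line its value was 0.02. Of the factors that process its protein, Ddi2 was higher and Ngly1 missed the threshold. The cap subunits Adrm1 (0.46 ± 0.18, adjusted p by limma = 0.054) and Sem1 (0.01) missed it too.

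The 3 immunoproteasome subunits tested were Psmb8, Psmb9 and Psmb10, which replace the catalytic beta subunits. In the mean of the clones against LL2 WT, 1 was lower (15.8% of all genes) and none was higher (21.6%). In the separate clones, 0 were lower in #1, 2 in #2 and 1 in #3, where 7.25%, 14.6% and 14.8% of all genes were. Psmb8 (chr17:34197721-34201454) was at low levels, 1.66, 1.45 and 3.09 CPM in LL2 WT, 1.5, 0.643 and 2.69 in KEAP1 KO #1, 0.0683, 0.117 and 0.639 in #2, 0, 0.107 and 0.456 in #3, and 0.868, 0.521 and 2.12 in NRF2 KO. Its mean over the clones was lower by limma at -2.14 ± 0.61 (adjusted p = 0.014), a value carried by #2 and #3, since #1 was at -0.46 (adjusted p = 0.70). Psmb9 stood at 1.15 to 1.91 CPM in #1 and under 0.42 in #2 and #3, and Psmb10 at 12.5 to 41.4 in LL2 WT and 19.8 to 54.0 in the clones, with neither past the threshold in the mean of the clones. For Psmb9 that mean joined opposite directions. Without replicate 3 of every line, its log2 fold changes against LL2 WT were 1.34 in #1, -1.70 in #2 and -1.31 in #3. Psme1, which encodes a subunit of the interferon-induced activator, fell from 103, 94.3 and 90.2 CPM in LL2 WT to 40.9 to 83.1 in the clones (-0.72 ± 0.16, adjusted p by limma = 0.0041). Its partner Psme2 was also lower, whereas the activators Psme3 and Psme4 were higher. Psma8 and Psmb11, of testis and thymus, did not pass the filter.

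**Figure D5:**
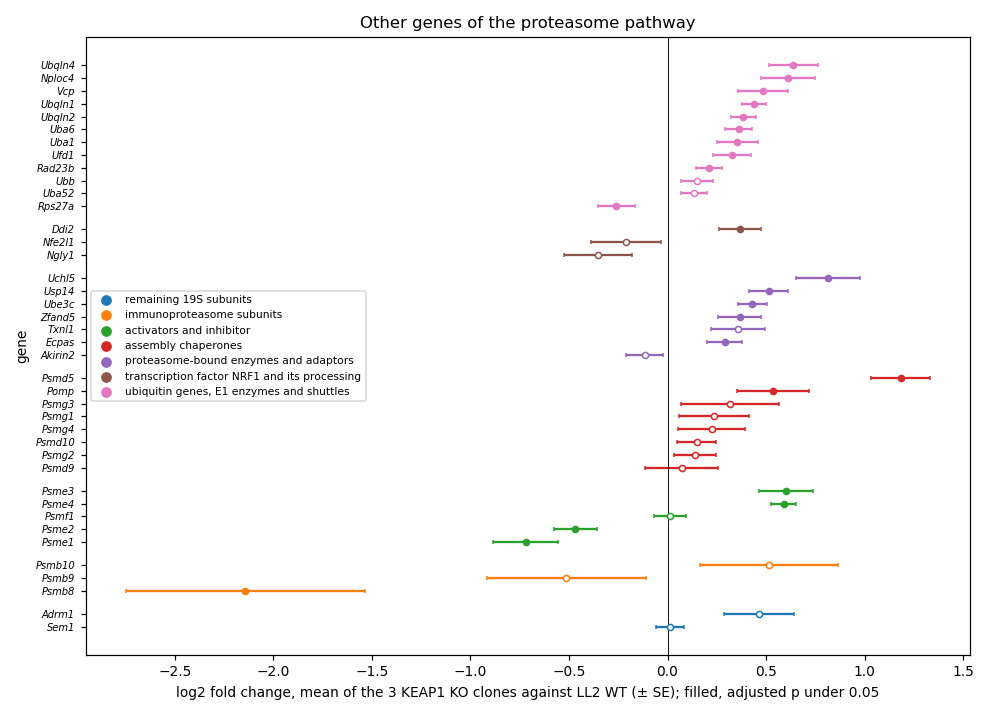
Log2 fold change (± SE) of the mean of the 3 KEAP1 KO clones against LL2 WT for the 40 other pathway genes tested, by list, with filled circles where the adjusted p was under 0.05. Most filled circles lie to the right of 0, Psmd5 furthest at 1.18, and Psmb8, Psme1, Psme2 and Rps27a lie to the left.

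Other large complexes were counted in the same way. In the mean of the clones against LL2 WT, where 21.6% of all genes were higher and 15.8% lower, 1 of 9 subunits of the COP9 signalosome, which resembles the lid, was higher (median -0.05), and 2 of 13 subunits of the translation factor eIF3 were higher and 4 lower (median -0.0024). Of 8 subunits of the CCT chaperonin, which folds actin and tubulin, 4 were higher (median 0.18). The proteasome members stood at 10 of 31 and 0.31. These values include replicate 3. Over replicates 1 and 2 alone, the summed CPM of CCT in #1, #2 and #3 was 1.05, 1.15 and 1.14 times that in LL2 WT. The same ratios were 1.06, 1.17 and 1.11 for the proteasome. They were 0.993, 0.944 and 0.91 for the COP9 signalosome and 0.978, 1.05 and 0.997 for eIF3. The drop in replicate 3 of LL2 WT was -0.39 for the COP9 signalosome, -0.49 for CCT and -0.063 for eIF3, against -0.69 for the proteasome, so it was shared by other complexes to unequal degrees. The difference between complexes was not tested.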

How the data were processed

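RNA of 15 samples (5 lines of 3) was measured by mRNA sequencing. The authors deposited 1 table of CPM, made with kallisto (submitters' processing notes) from reads converted with bcl2fastq 1.9.0. These CPM are fractional, so whole reads could not be recovered and depth is unknown. The study's methods name genome release GRCm38.p6 and the processing notes GRCm39. Of the 35880 symbols, 91.3% were found in GENCODE M21 (GRCm38), which gave the coordinates printed here, and the table itself holds none. A row with no symbol (0.0214% to 0.0491% of each sample) was left out.

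Values were taken as log2(CPM + 0.1), genes with a sum under 3 CPM were dropped, and 1 mean per line was fitted in limma 3.58.1 (R 4.3.3; empirical Bayes with a trend, two-sided), with Benjamini-Hochberg adjustment over 14652 genes and a threshold of 0.05. The difference between clones was a contrast in the same fit. Fold changes are on that log2 scale, and those of genes at low CPM such as Psmb8 are understated. The procedure was tested on simulated data with independent noise in each sample. Those data held no shift shared by replicate 3, so the test does not cover it.

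Replicate numbers come from the sample titles. Same-numbered samples deviated together (every r over 0.1, over 11676 genes) in 2 of 10 pairs of lines (KEAP1 KO #2 with #3, at 0.278, 0.126 and 0.546, and #3 with NRF2 KO, at 0.129, 0.262 and 0.552), so no general block was used. Over all 10 pairs r was -0.0221 to 0.278 for number 1, 0.126 to 0.529 for number 2 and 0.422 to 0.631 for number 3, and for different numbers the median of each pair of lines was -0.288 to -0.0747. The rule was thus missed through number 1 alone, while numbers 2 and 3 met it in all 10 pairs. Counts with a replicate block are therefore given beside the main ones. No 2 samples held identical values. The labels do not say that triplicates were separate cultures. Each line had its own mean in the fit, so p-values measure the spread between samples of a line and not that between clones.

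The members and all lists were chosen with earlier results of these data known. Members were described in full by a rule: in each subunit group the highest and lowest log2 fold change of the mean of the clones, the catalytic subunits, Psmd14, and those past both thresholds. Other genes were named where past both thresholds or as immunoproteasome and regulator genes, and remaining names account for counts. Alternatives were 2 other pseudocounts, 2 other filters, 2 other scalings, fits of the compared lines alone, no trend, sample weights, a replicate block and each sample left out. Leaving out replicate 3 of every line, or fitting it as a batch, was chosen after seeing the data. The assembly chaperone Paaf1 was not analysed here, and 2 genes of the list of ubiquitin genes, E1 enzymes and shuttle factors are not reported here. Figures were drawn with matplotlib 3.10.9.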

Additional observations from a re-analysis of the deposited data

Results flagged for a closer look

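Differences between KEAP1 KO clones that passed the adjusted threshold fell among the other pathway genes and not among the 31 subunits in the fit of all samples without a block. For KEAP1 KO #1 against #2 and #3, 4 of the 40 other genes were higher and 3 lower. That share was near the 15.8% of all genes that differed in either direction. For #3 against #2, 1 of the 40 was lower, where 0.764% of all genes differed in either direction. The difference between the 2 lists was not tested. With the replicate block, 4 subunits were lower in KEAP1 KO #1 than in #2 and #3 (9.98% of all genes). Psma6 was then lower in #3 than in #2 (1.32% of all genes). Without replicate 3 of every line, 7 subunits were lower in #1 (8.58% of all genes) and 2 higher (16.6%). For KEAP1 KO #1 against the mean of #2 and #3, the immunoproteasome genes Psmb8 and Psmb9 were higher in #1 by 2.52 (adjusted p by limma = 0.018) and 2.65 (0.0012) on the log2 scale. Also higher in #1 were Psme2 by 0.51 and the cap subunit Sem1 by 0.29. Lower in #1 were the activator Psme4 at -0.47, Zfand5 at -0.40 and the shuttle factor Ubqln2 at -0.53. For #3 against #2, Psme4 was at -0.39 (adjusted p by limma = 0.036).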

How the results depend on the processing

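Counts of members past the threshold depended on replicate 3 and on how its spread was modelled. The cause was not tested. Counts are given as higher and lower for the mean of the clones against LL2 WT, then KEAP1 KO #1, #2 and #3 against LL2 WT, NRF2 KO against LL2 WT, the clones against NRF2 KO, #1 against #2 and #3, and #3 against #2. Those of the report were 10 and 0, 2 and 0, 9 and 0, 6 and 0, 0 and 0, 4 and 0, 0 and 0, and 0 and 0. With the replicate block they were 19 and 1, 11 and 1, 20 and 0, 13 and 0, 0 and 0, 16 and 0, 0 and 4, and 0 and 1. Fitting replicate 3 as a batch, they were 19 and 1, 11 and 1, 20 and 0, 14 and 0, 0 and 0, 16 and 0, 0 and 4, and 0 and 1. With sample weights they were 17 and 2, 9 and 3, 19 and 3, 15 and 3, 3 and 2, 12 and 0, 0 and 4, and 1 and 1. Without replicate 3 of every line they were 13 and 3, 10 and 3, 15 and 1, 11 and 2, 0 and 0, 13 and 0, 2 and 7, and 0 and 0, and Psmd13 reversed to -0.21 in the mean of the clones and to -0.26 in #3. The shares of all genes moved too. For the mean of the clones they were 21.6% higher and 15.8% lower in the report, 29.1% and 22.9% with the block or the batch, 38.4% and 40.4% with sample weights, and 21.6% and 21.6% without replicate 3. For the clones against NRF2 KO the share higher was 13.6% in the report. It was 21% with the block, 20.9% with the batch, 25.2% with sample weights and 16.6% without replicate 3. For #1 against #2 and #3 the share lower was 5.62% in the report. It was 9.98% with the block, 9.85% with the batch, 10.8% with sample weights and 8.58% without replicate 3. For #1, #2 and #3 the shares higher were 15.9%, 17.3% and 16.6% in the report, 26.4%, 25.4% and 24.3% with the block and 31.7%, 34.9% and 31.2% with sample weights, and the shares lower 7.25%, 14.6% and 14.8%, then 14.4%, 22.7% and 22.9%, then 22.9%, 39.7% and 37.9%.

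Rescaling CPM by the median ratio gave 6 higher for the mean of the clones, where 18% of all genes were. For #1 it gave 1 higher and 1 lower (9.97% and 11.3% of all genes). Quantile normalization gave 2 lower for the mean of the clones (19.2%) and 1 lower for each of #1, #2 and #3 (11.3%, 17.2% and 17.2%). For #1 against #2 and #3 it gave 2 lower (7.76%). A filter at a mean of 1 CPM gave 4 higher and 1 lower for #1 (18.9% and 7.81%). For #1 against #2 and #3 it gave 1 lower (6.43%). A pseudocount of 1 CPM gave 1 lower for #1 (7.53%). Fits of the compared lines alone gave 0 higher for #1, 3 for #2, 2 for #3 and 10 for the clones against NRF2 KO, and 3 lower for #1 against #2 and #3. The shares of all genes in those fits are not given here.

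Leaving out 1 sample in turn moved the higher count from 3 to 14 for the mean of the clones, 2 to 7 for #1, 3 to 13 for #2, 3 to 10 for #3 and 2 to 6 for the clones against NRF2 KO, and the lower count from 0 to 2, 0 to 1, 0 to 0, 0 to 1 and 0 to 0. For the mean of the clones, 16.1% of all genes were higher where 3 members were, and 22.5% where 14 were. Shares for the other comparisons with 1 sample left out are not given here. The median log2 fold change ran from 0.050 to 0.47 for the mean of the clones, 0.015 to 0.44 for #1, 0.13 to 0.54 for #2, 0.071 to 0.44 for #3, and -0.18 to 0.27 for NRF2 KO, where it reversed. The low end of each median came without LL2 WT replicate 3. Psmd13 ran from -0.29 to 0.37 in the mean of the clones and from -0.34 to 0.33 in #3. Counts moved by over 1.5 times without LL2 WT replicate 2 (7 for #1 and 10 for #3), without LL2 WT replicate 3 (3 for the mean of the clones and for #2), without replicate 1 or 2 of the clone itself (4 and 3 for #2, 3 and 3 for #3), and without NRF2 KO replicate 3 (2 for the clones against NRF2 KO).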
